A study of Mus musculus with 6 samples.

Results

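Alternative activation is the state that macrophages enter in response to interleukin 4 or interleukin 13, and the genes described here are 10 of its receptor, transcription factor and target genes: Il4ra, Stat6, Klf4, Arg1, Retnla, Chil3, Pdcd1lg2, Ccl17, Ccl22 and Ccl24. They are 10 of the 21627 protein-coding genes measured on chromosomes 1 to 19 and X. Each gene stands for its locus, the gene span in mm10 with 10 kb added on each side, together with all ATAC-seq peaks of the series that overlap it. In ATAC-seq a transposase cuts and tags open DNA, and a peak is a stretch where its insertions pile up above the local background of a library. The 6 libraries came from bone marrow macrophages of wild-type BALB/c mice. The young group was 3 weeks old and the old group over 78 weeks, with 3 libraries of 50000 cells per age. The cells of both groups had been grown out of marrow in culture and typed as F4/80+CD169+, and the labels name no cytokine treatment. The labels do not say whether the replicates came from separate mice, so the p-values below rest on the spread between these libraries alone, and that spread may be technical.

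Both cytokines signal through the receptor chain encoded by Il4ra, which pairs with the common gamma chain or with the interleukin 13 receptor and acts through Janus kinases. The kinases phosphorylate STAT6, which enters the nucleus as a dimer and binds palindromes made of the half-sites TTC and GAA with any 4 bases between them. KLF4 acts with STAT6 on many of the same targets. In mouse macrophages the classic targets are Arg1, which encodes the urea cycle enzyme arginase 1, Retnla, which encodes the secreted protein RELMalpha, and Chil3, which encodes the chitinase-like lectin Ym1. Others are Pdcd1lg2, which encodes the checkpoint ligand PD-L2, and the chemokine genes Ccl17, Ccl22 and Ccl24. CCL17 and CCL22 attract CCR4-bearing T cells, and CCL24 attracts eosinophils through CCR3.

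Macrophage identity was checked on 8 marker genes, all of which had a peak among the 50000 strongest peaks of each library. In the same lists all 4 dendritic cell, all 4 B cell and all 5 stromal marker genes also had a peak in each library, as did 3 of 4 T cell and innate lymphoid genes, 3 of 4 neutrophil genes, 2 of 3 endothelial genes and 1 of 4 eosinophil and mast cell genes. The genes without any were Cd3e, Ly6g, Prg2, Epx and Cpa3. A peak at a marker gene does not by itself show which cells it came from. Whether cells other than macrophages were present in the cultures was not tested. The deposited lists held 215947 to 254410 peaks covering 48.2 to 66.1 Mb. Neither the number of peaks (exact permutation test, two-sided p = 0.50) nor the covered length (p = 0.30) differed between the ages beyond the spread of the libraries, and 3 against 3 libraries cannot go below 0.10. Read depth is unknown, so a missing peak means only that none was called. The cells were profiled in bulk, where fewer cells with an open site and less accessibility per cell cannot be told apart.

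The stretches just before the gene starts differed in their letters and in their cover by peaks. RefSeq (GRCm38.p6) gave the 250 bases before the start for 8 of the 10, Arg1 and Ccl24 not among them. Of these 5 are shown 5' to 3' in the direction of transcription, with matches to 6 searched motifs in capitals. The first pair was fully covered by peaks in all 6 libraries. The other 3 each hold a match to the STAT6 palindrome and had a peak in at most 1 library. Not shown are Klf4, covered in all 6 libraries, Ccl22, with a peak in 5, and Chil3, with a peak in 0. None of these holds a match to the palindrome, so lack of a match did not go with an open promoter throughout.
Il4ra, chr7:125552021-125552270, plus strand: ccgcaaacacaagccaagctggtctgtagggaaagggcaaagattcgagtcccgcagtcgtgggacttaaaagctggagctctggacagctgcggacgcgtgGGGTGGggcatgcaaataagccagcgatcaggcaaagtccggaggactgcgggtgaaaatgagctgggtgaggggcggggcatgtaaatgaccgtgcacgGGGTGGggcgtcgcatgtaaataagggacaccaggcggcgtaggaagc
Stat6, chr10:127642736-127642985, plus strand: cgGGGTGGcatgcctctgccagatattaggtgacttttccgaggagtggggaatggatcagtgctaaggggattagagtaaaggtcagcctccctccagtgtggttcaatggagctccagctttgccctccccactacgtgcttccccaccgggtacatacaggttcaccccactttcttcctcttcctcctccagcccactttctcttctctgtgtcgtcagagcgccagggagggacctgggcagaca
Retnla, chr16:48842359-48842608, plus strand: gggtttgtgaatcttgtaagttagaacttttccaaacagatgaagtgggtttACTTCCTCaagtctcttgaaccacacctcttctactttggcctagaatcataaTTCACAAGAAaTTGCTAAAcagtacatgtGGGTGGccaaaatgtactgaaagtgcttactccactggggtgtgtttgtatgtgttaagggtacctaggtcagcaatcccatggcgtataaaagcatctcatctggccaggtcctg
Pdcd1lg2, chr19:29410669-29410918, plus strand: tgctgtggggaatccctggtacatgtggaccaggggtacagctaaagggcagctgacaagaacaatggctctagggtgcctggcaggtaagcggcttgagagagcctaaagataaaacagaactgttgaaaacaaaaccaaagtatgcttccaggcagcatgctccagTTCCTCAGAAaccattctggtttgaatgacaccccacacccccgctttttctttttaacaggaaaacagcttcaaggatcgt
Ccl17, chr8:94810203-94810452, plus strand: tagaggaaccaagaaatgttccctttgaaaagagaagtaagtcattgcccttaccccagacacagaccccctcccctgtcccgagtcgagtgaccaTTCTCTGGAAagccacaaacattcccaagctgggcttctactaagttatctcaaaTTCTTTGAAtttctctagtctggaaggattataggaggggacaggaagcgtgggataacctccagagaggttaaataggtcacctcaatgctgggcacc
The motifs, searched on both strands, were TTC and GAA with 4 bases between them (STAT6-type), TTC and GAA with 3 bases between them (other STAT-type), GAGGAAGT (PU.1-type), TTGCNNAA (C/EBP-type), TGANTCA (AP-1-type) and CCACCC (KLF-type, read as GGGTGG on the other strand). No capitals belong to more than 1 motif. A match is a description of the letters and not a measured binding site.

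The STAT6-type palindrome was found in 3 of the 8 promoters, against 5.45% of the 17273 promoters in the table. It lay at -145 to -136 from the Retnla start as TTCACAAGAA, at -82 to -73 from the Pdcd1lg2 start as TTCCTCAGAA and at -154 to -145 from the Ccl17 start as TTCTCTGGAA. Neither the Retnla nor the Pdcd1lg2 promoter had a peak in any library. The Ccl17 promoter had 1, in young library 3, which ended at -166 and did not reach the palindrome. Retnla also held a PU.1-type match at -198 to -191 and a C/EBP-type match, TTGCTAAA, at -134 to -127, next to its palindrome. PU.1-type matches occur in 2.21% and C/EBP-type matches in 9.22% of all promoters. KLF-type matches, the only ones in the Il4ra and Stat6 promoters, occur in 29.8% of all promoters. Retnla and Ccl22 hold them too, and the Klf4 promoter, covered in all 6 libraries, holds none. The Chil3 promoter held the shorter STAT form, TTCTTAGAA, at -172 to -164, a form found in 6.77% of promoters, and likewise had no peak in any library.

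The promoters open in every library were richer in G and C than those without a peak. The Klf4 promoter had 74.0% G and C with 32 CpG dinucleotides, Il4ra 59.6% with 17, and Stat6 56.8% with 6. All 250 bases of each of these were covered in each of the 6 libraries. The promoters without a peak in any library, Retnla, Chil3 and Pdcd1lg2, had 42.8%, 36.4% and 48.4% G and C with 1, 3 and 3 CpG dinucleotides. The medians over all promoters were 55.6% and 10 CpG. Over all promoters with an observed to expected CpG ratio of 0.6 or more, 89.6% had a peak in all 6 libraries and 4.89% had none, against 29.7% and 59.5% below that ratio. Stat6, with a ratio of 0.299, was covered in all 6 libraries although it lies below that ratio. Klf4 had a ratio of 0.941 and Il4ra of 0.843.

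The share of the locus under peaks differed widely among the 10 genes. As the mean percentage of the locus under peaks over the 6 libraries, Stat6 came first with 15.2%, followed by Klf4 with 12.0%, Il4ra with 9.50%, Ccl17 with 8.76%, Ccl24 with 7.60%, Pdcd1lg2 with 5.76%, Arg1 with 3.63%, Ccl22 with 3.09%, Retnla with 0.297% and Chil3 with 0.164%. The median of all 21627 loci was 4.26%, and Stat6 stood at percentile 99.3 of them while Chil3 stood at 15.4. Over the 6 libraries the ranges of Stat6 and Klf4 did not overlap, nor did those of Ccl24 and Pdcd1lg2 or of Ccl22 and Retnla. All other neighbours in the order overlapped. Among the 50000 strongest peaks of each library, Arg1, Retnla, Chil3 and Ccl22 had no peak in any of the 6 libraries, as did 23.8% of all loci. The other six loci had at least 1 such peak in all 6 libraries, as did 69.1% of all loci.

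**Figure D1:**
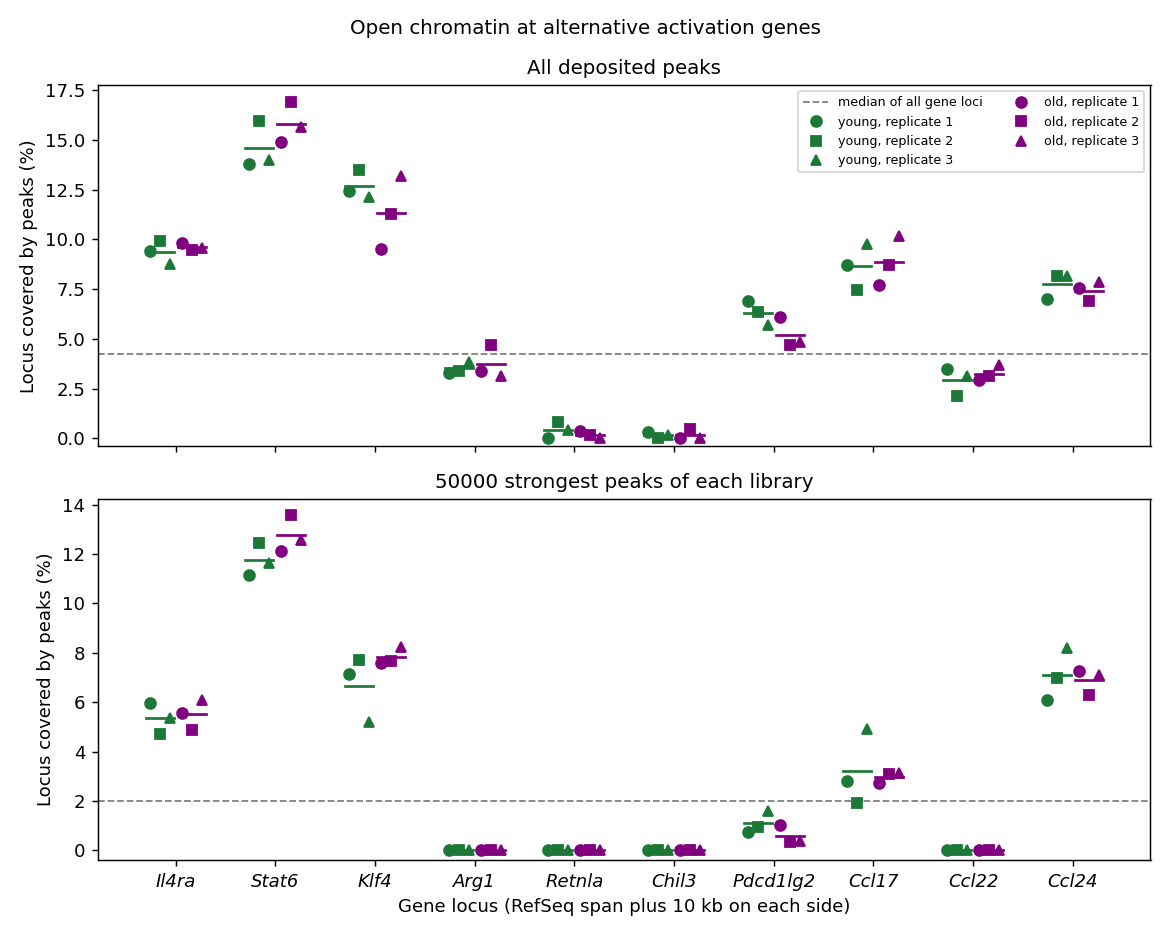
Percentage of each locus under peaks in each library (scaled to the library's sum over all gene loci), for all deposited peaks (upper panel) and the 50000 strongest peaks per library (lower panel); points are single libraries, short lines the means of 3 young (green) and 3 old (purple) libraries, and the dashed line the median of all loci, 4.26% and 2.01%. Stat6 lies highest in both panels, Arg1, Retnla, Chil3 and Ccl22 lie at 0% in the lower one, and the young and old points overlap at every locus above 0.

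The receptor gene Il4ra (chr7:125552271-125579474) was open at its start and along its body. Its scaled covered length was 4435, 4682 and 4140 bp in the young libraries and 4647, 4462 and 4527 bp in the old. The ages overlapped, with a log2 change (old minus young) of 0.04 (SE 0.08, 95% interval -0.13 to 0.21, limma adjusted p = 0.89). Its locus held 25 merged regions, stretches where peaks of the libraries overlap by 1 bp or more, of which 8 had a peak in all 6 libraries. The start lay in the region chr7:125551673-125552696, with 982, 862 and 1010 bp of peak in young and 1022, 878 and 762 bp in old. That region was also the one ranked highest in its weakest library, within the top 8.54% to 12.5% of each library's peaks by −log10 q. Within the gene body the region chr7:125565487-125566232, 13216 bp after the start, also had a peak in all 6 libraries.

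Stat6 (chr10:127642955-127660987), the transcription factor of the pathway, had the densest locus of the 10. Scaled covered length was 5249, 6063 and 5324 bp in young and 5659, 6433 and 5944 bp in old, again overlapping, with a log2 change of 0.11 (SE 0.08, interval -0.05 to 0.28, adjusted p = 0.61). Of its 14 regions 9 had a peak in all 6 libraries. The start lay in a region of 2443 bp, chr10:127641880-127644322, the longest of the 137 regions at these loci. It held 2149, 1986 and 2263 bp of peak in young and 2442, 2101 and 2032 bp in old. The region ranked highest in its weakest library lay upstream, at chr10:127636656-127636967, which is -6019 bp from the start. It had 244 to 298 bp of peak per library, within the top 4.63% of each list. The next gene, Nab2, shares the locus: 3 of the 9 regions overlap Nab2, so part of the Stat6 value is open chromatin inside its neighbour.

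Klf4 (chr4:55527137-55532475) was the most open of the 10 loci for its length after Stat6. Its start region, chr4:55532133-55533490, ranked highest of all Klf4 regions in its weakest library and stood within the top 2.13% to 3.72% of every list. It held 1161, 892 and 1226 bp of peak in young and 1094, 980 and 909 bp in old. A region 8574 bp upstream, chr4:55541049-55542137, was singled out after its values were seen. It held 815, 1054 and 874 bp in young and 678, 658 and 843 bp in old, and ranked in the top 1.78% to 7.58%. No other protein-coding gene lies in the Klf4 locus. For the locus as a whole the scaled values were 3156, 3416 and 3079 bp in young and 2413, 2854 and 3335 bp in old. Of the old libraries 2 lay below all young ones and the third among them, with a log2 change of -0.17 (SE 0.10, interval -0.38 to 0.05, adjusted p = 0.55).

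Arg1 (chr10:24915207-24927470) stood at percentile 43.7 of all loci, and its peaks were few and weak. Scaled covered length was 1069, 1097 and 1243 bp in young and 1091, 1517 and 1016 bp in old, a log2 change of 0.06 (SE 0.15, interval -0.26 to 0.38, adjusted p = 0.91). Of its 15 regions 4 had a peak in all 6 libraries, and none of these 4 lay inside the gene span. The region ranked highest in its weakest library, chr10:24930093-24930613, lay 2623 bp beyond the upper end of the gene and held 509, 371 and 332 bp in young and 327, 496 and 289 bp in old. It ranked within the top 20.9% to 30.5%. A smaller one, chr10:24927531-24927719, lay 61 bp beyond the same end, with 123, 117 and 189 bp in young and 155, 44 and 44 bp in old. It ranked between 51.0% and 86.8%. The region chr10:24911205-24911626 lies inside the neighbouring gene Med23, so 3 regions with peaks in all 6 libraries were left for Arg1 outside any other gene.

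Retnla (chr16:48842609-48844461) and Chil3 (chr3:106147554-106167564) were close to closed at both ages. Retnla had 2 regions in its 21853 bp locus, both upstream of the gene. The region chr16:48833735-48833902, at -8707 bp, held 168 bp of peak in young library 2, 104 bp in young library 3 and 95 bp in old library 1. The region chr16:48838842-48838870, at -3739 bp, held 29 bp in old library 2 alone. Chil3 had 1 region, chr3:106172619-106172788, at -5055 bp, with 152 bp in young library 1, 75 bp in young library 3 and 161 bp in old library 2. Each of these genes thus had no peak at all in 2 (Retnla) or 3 (Chil3) of the 6 libraries. Both fell under the filter of a mean of 500 bp. The related genes Chil4, Chia1 and Retnlg had scaled lengths of at most 304 bp in any library, and Chia1 had 0 bp in all 6.

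Pdcd1lg2 (chr19:29410919-29472927), the gene of the checkpoint ligand PD-L2, was closed at its start and open within. No library had a peak within 1 kb of the start, yet the locus held 31 regions, 13 of them with a peak in all 6 libraries, the most of the 10 genes. The region ranked highest in its weakest library, chr19:29430494-29431447, lies 19575 bp after the start, inside the gene. It held 551, 599 and 917 bp in young and 706, 444 and 523 bp in old, within the top 4.79% to 24.7%. Scaled covered length was 5651, 5211 and 4687 bp in young and 4986, 3836 and 3957 bp in old. The groups overlapped, since old library 1 lay above young library 3. The log2 change was -0.28 (SE 0.10, interval -0.49 to -0.07, unadjusted p = 0.0122, adjusted p = 0.22). Of the 8 members tested it had the smallest p, and it did not pass the threshold of 0.05. Without old library 1, which had the longest old peak list, it passed, with a log2 change of -0.39 (SE 0.09, adjusted p = 0.0434). The smallest adjusted p of Pdcd1lg2 over the settings that kept all 6 libraries was 0.12.

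The 3 chemokine genes differed in where they were open. Ccl17 (chr8:94809380-94812038) had 1979, 1696 and 2219 bp in young and 1744, 1975 and 2302 bp in old, a log2 change of 0.03 (SE 0.12, interval -0.23 to 0.29, adjusted p = 0.95). Of its 12 regions 6 had a peak in all 6 libraries. The one ranked highest in its weakest library, chr8:94812703-94813230, lay 665 bp past the end of the gene and held 329, 153 and 389 bp in young and 396, 232 and 203 bp in old, in the top 5.57% to 14.1%. Near its start only young library 3 had a peak, of 112 bp. The gene Ciapin1 lies within the Ccl17 locus.

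Ccl22 (chr8:94745684-94751388), which lies near Ccl17 on the chromosome, was covered more sparsely. Scaled covered length was 897, 555 and 804 bp in young and 753, 804 and 955 bp in old, with a log2 change of 0.14 (SE 0.19, interval -0.26 to 0.54, adjusted p = 0.83). Of its 17 regions 1 had a peak in all 6 libraries, chr8:94735478-94736102, at -9582 bp, with 223 to 625 bp of peak in the top 24.3% to 33.5%. At the start itself the region chr8:94745421-94745635, which ends at -49 bp, held 165, 132 and 123 bp in young and 215, 110 and 0 bp in old. It was thus called in 5 of 6 libraries and missing from old library 3, and ranked between 39.3% and 93.5% where it was called.

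Ccl24 (chr5:135569935-135573123) had few regions. Those with a peak in all 6 libraries were strong, and the others ranked between 51.7% and 89.4% where they were called. Of 5 regions 3 had a peak in all 6 libraries. The one ranked highest in its weakest library, chr5:135582017-135582919, lay 8894 bp beyond the upper gene end and held 579, 638 and 850 bp in young and 898, 479 and 544 bp in old, in the top 2.52% to 4.62%. A region over the upper gene end, chr5:135573023-135573380, held 346, 332 and 326 bp in young and 321, 315 and 324 bp in old. Past the lower end, chr5:135568304-135569202 held 490 to 899 bp. The scaled locus values were 1626, 1891 and 1888 bp in young and 1749, 1603 and 1818 bp in old, a log2 change of -0.06 (SE 0.11, interval -0.30 to 0.18, adjusted p = 0.89). The gene Ccl26 lies within the same locus. Where Arg1 and Ccl22 had no peak among the 50000 strongest, Ccl24 kept 1408 to 1904 scaled bp in every library.

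**Figure D2:**
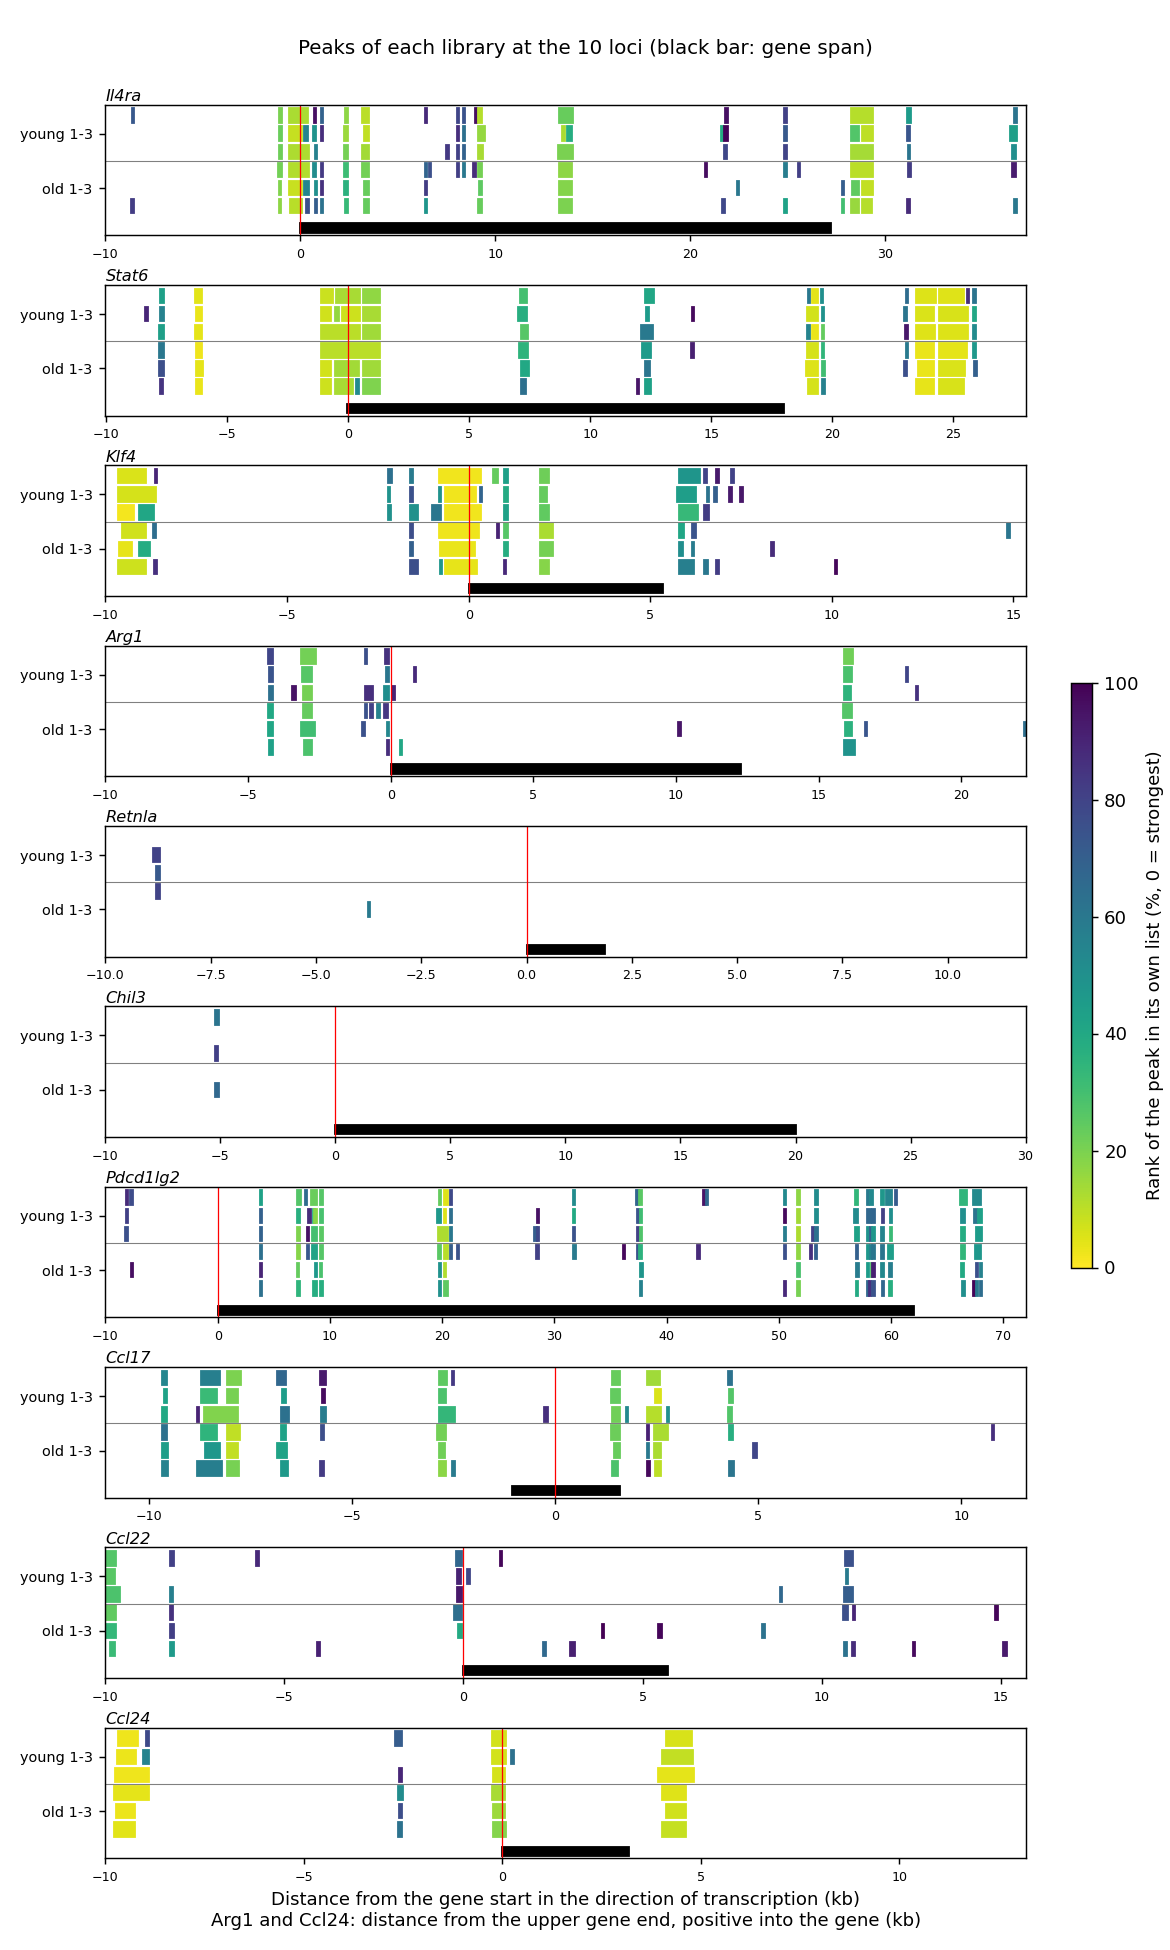
Peaks of the 3 young and 3 old libraries (rows) at each of the 10 loci, by distance in kb from the gene start in the direction of transcription (for Arg1 and Ccl24 from the upper gene end, positive into the gene); black bars are gene spans and colour gives the rank of each peak in its own list, 0% being the strongest. Il4ra, Stat6 and Klf4 have a peak over the start in all 6 rows, Pdcd1lg2 has none there, and Retnla and Chil3 have 1 or 0 peaks per row.

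Set against age, none of the 10 loci passed the test on the deposited lists. The fit covered the 16939 loci whose mean reached 500 bp, of which 164 or 0.968% were called by limma at an adjusted p under 0.05, 66 (0.39%) wider and 98 (0.579%) narrower in old. Without scaling for list length 15 loci were called, 2 wider and 13 narrower. Of the 10 members 8 passed the filter and 0 were called. At an unadjusted p under 0.05 there was 1 member, Pdcd1lg2, against 12.8% of all loci. The log2 change was above 0 for 5 members and below 0 for 3, with a median of 0.03 beside 0.01 over all loci tested. Young and old values lay fully apart at 17.0% of all loci and at 0 of the 8 members. With no filter, the log2 changes were -0.24 (SE 0.29) for Retnla and -0.07 (SE 0.37) for Chil3. The intervals of Il4ra and Stat6 were the tightest, and that of Ccl22 the widest of the 8.

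On lists of equal number, the 50000 strongest peaks of each library, no member was called either. Here 14377 loci were tested and 183 or 1.27% called, 120 (0.835%) wider and 63 (0.438%) narrower in old, and 5 without scaling, 1 wider and 4 narrower. Of the members 6 could be tested, 3 above and 3 below 0, with a median log2 change of 0.01, and 0 had an unadjusted p under 0.05 against 14.8% of all loci. Young and old values lay fully apart at 20.3% of all loci and at 0 of the 6 members. Il4ra (0.04, SE 0.12) and Stat6 (0.11, SE 0.08) had log2 changes close to those on the deposited lists, although Il4ra moved to 1.00 with a wide error (SE 0.83) on the 30000 strongest peaks. Klf4 had the opposite sign, 0.22 (SE 0.14, adjusted p = 0.53), with scaled values of 1805, 1949 and 1316 bp in young and 1921, 1946 and 2085 bp in old. Pdcd1lg2 again lay lowest at -0.72 (SE 0.35, interval -1.54 to 0.10, adjusted p = 0.40), from 598, 762 and 1323 bp in young and 854, 288 and 308 bp in old. The chemokine genes Ccl17 (-0.02, SE 0.26) and Ccl24 (-0.03, SE 0.13) lay near 0 here, but Ccl17 was -0.25 (SE 0.20) on the 100000 strongest peaks and Ccl24 -0.33 (SE 0.14, adjusted p = 0.38) on the 30000 strongest.

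**Figure D3:**
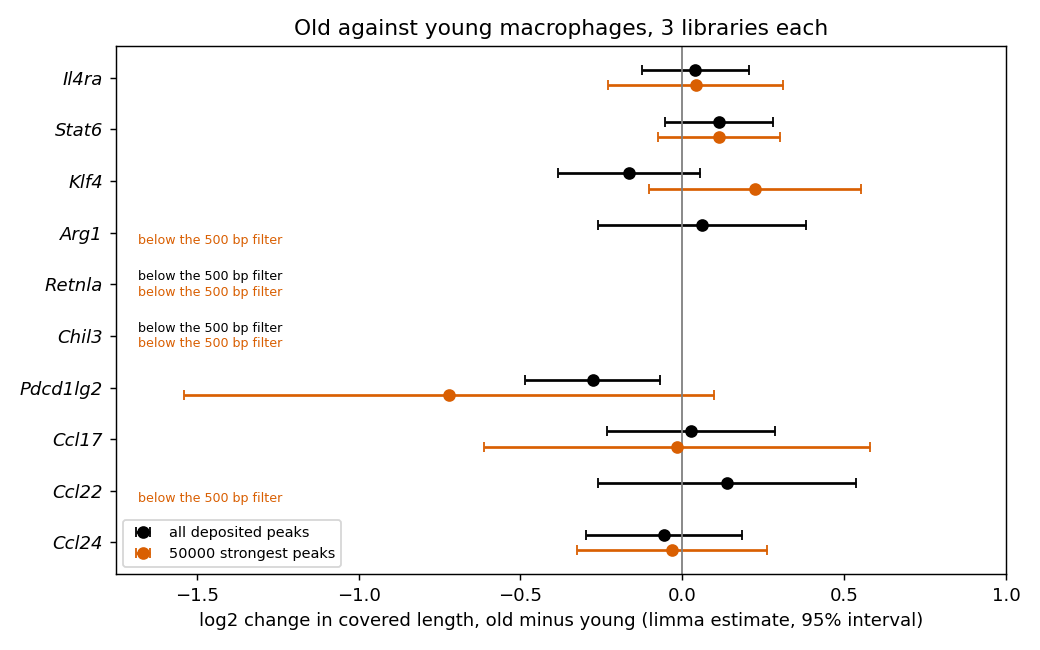
Estimated log2 change in covered length, old minus young, with its 95% interval from limma for each of the 10 loci, on the deposited lists (black) and on the 50000 strongest peaks per library (orange), 3 libraries per age. All intervals include 0 except that of Pdcd1lg2 on the deposited lists, and Retnla and Chil3 fell under the filter on both.

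Within 1 kb of the gene start the members with a given start split into 3 with wide peaks in every library and the rest with little or none. Stat6 had 1743, 1582 and 1857 bp in young and 2001, 1695 and 1592 bp in old of the window around its start. Klf4 had 1303, 927 and 1248 bp in young and 1170, 1004 and 933 bp in old. Il4ra had 1136, 1006 and 1159 bp in young and 1223, 981 and 836 bp in old. Retnla, Chil3 and Pdcd1lg2 had 0 bp in all 6 libraries. Ccl22 had 165, 211 and 123 bp in young and 215, 110 and 0 bp in old, and Ccl17 had 112 bp in young library 3 and 0 bp elsewhere. Arg1 and Ccl24 have no given start and are placed in neither class, so both gene ends are listed. For Arg1 the upper end had 178, 146 and 512 bp in young and 397, 142 and 73 bp in old, and the lower end 0 bp in all 6. For Ccl24 the upper end had 315 to 361 bp per library and the lower end 58 to 268 bp.

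None of the 3 starts long enough under peaks to be tested passed the test of age. limma called 0.0% of 9373 start windows, with 682 (7.28%) at an unadjusted p under 0.05. On the scaled values the log2 change was 0.16 for Stat6 (SE 0.07, unadjusted p = 0.0432, adjusted p = 0.67), 0.02 for Il4ra (SE 0.09, adjusted p = 0.97) and -0.0016 for Klf4 (SE 0.10, adjusted p = 1.00).

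**Figure D4:**
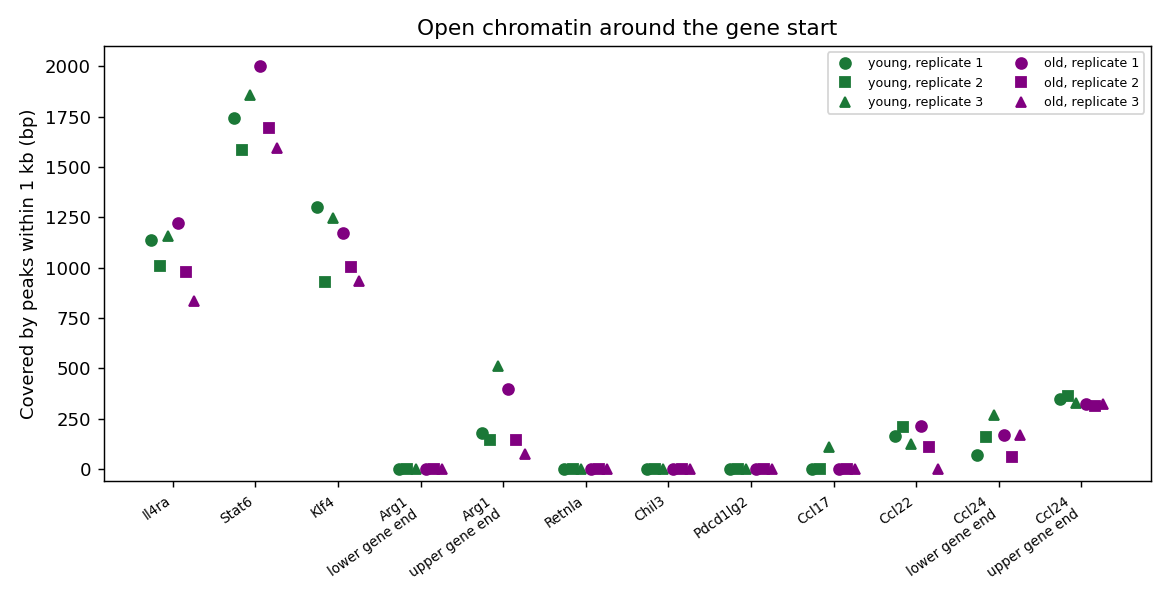
Base pairs under peaks within 1 kb on each side of the gene start (for Arg1 and Ccl24 of each gene end), one point per library for 3 young and 3 old libraries, unscaled. Stat6, Klf4 and Il4ra lie between 836 and 2001 bp in all 6 libraries, while Retnla, Chil3 and Pdcd1lg2 lie at 0 bp.

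Single regions were compared in 2 ways. Of the 137 regions at the 10 loci, 50 had a peak in all 6 libraries, where the share over the 403801 regions of the series was 30.0%, and 49 had a peak in 1 library. Of these 50, 25 overlapped the span of the member gene, 25 lay outside it, and 4 lay over the start or, for Ccl24, a gene end. Regions with a peak in all 3 young and no old library numbered 2, against 1.42% of all regions, and those with the opposite pattern 0, against 0.513%. One of the young-only regions was chr4:55534592-55534704, at -2117 bp from the Klf4 start, with 91, 29 and 99 bp of peak in the young libraries, ranked between 49.3% and 63.3%. The other was chr19:29402690-29402936, at -7983 bp from the Pdcd1lg2 start, with 58, 206 and 63 bp, ranked between 75.8% and 87.6%. Both were short, and every one of their peaks lay beyond the top 49.3% of its list. When regions within 150 bp of each other were merged as well, 118 regions were left, with 2 young-only regions (1.43% of all regions) and 0 old-only (0.563%).

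The lengths of the 50 shared regions were then tested in a fit over all 121253 regions with a peak in every library, added after the data were seen. limma called 0.0% of them, with 13514 (11.1%) at an unadjusted p under 0.05. Of the 50 member regions 0 were called and 5 had an unadjusted p under 0.05. The smallest belonged to the Stat6 start region, with a log2 change of 0.17 (SE 0.06, unadjusted p = 0.0240, adjusted p = 0.37). Next came a Klf4 region 5726 bp after the start, chr4:55526106-55526749, with 591, 543 and 540 bp in young and 267, 164 and 434 bp in old, and a change of -0.80 (SE 0.29, adjusted p = 0.37). Another Klf4 region, chr4:55530146-55530520 inside the gene, had the opposite sign (0.45, SE 0.19, adjusted p = 0.43). At Pdcd1lg2 the region chr19:29467647-29468024 held 293, 316 and 327 bp in young and 196, 165 and 218 bp in old (-0.46, SE 0.18, adjusted p = 0.40), and chr19:29477106-29477666 had a change of -0.44 (SE 0.19, adjusted p = 0.44).

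Around these genes, a list of 42 further genes of interleukin 4 and interleukin 13 signalling and alternative activation was read in the same fits. Not all of their loci are separate. Il4 and Il13 had the same values on the strongest peaks, and Ccl26 lies in the locus of the member Ccl24. On the deposited lists 39 were tested, 20 above and 19 below 0 with a median of 0.01, and 0 were called by limma, against 0.968% of all loci. At an unadjusted p under 0.05 there were 7, against 12.8% of all loci. Jak3, the kinase bound to the common gamma chain, had 2994, 3049 and 2694 bp in young and 2428, 1970 and 2161 bp in old, a log2 change of -0.39 (SE 0.10, adjusted p = 0.0824). It passed the threshold without old library 1 (adjusted p = 0.0370), and was smaller with 25 kb on each side (-0.095, adjusted p = 0.62) and at a −log10 q of at least 5 (-0.16, adjusted p = 0.80). Mrc1, which encodes the mannose receptor, had 7618, 7129 and 6879 bp in young and 6053, 5772 and 6138 bp in old, a difference of -0.26 on the log2 scale (SE 0.07, adjusted p = 0.0952). In both genes every old library lay below every young one, a separation seen in either direction at 17.0% of all loci. The smallest p in the other direction belonged to Slc7a2, an arginine transporter gene (0.15, SE 0.08, adjusted p = 0.44), and Socs3, a feedback inhibitor of cytokine signalling (0.15, SE 0.09, adjusted p = 0.53).

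In the main fits, with all 6 libraries, Mrc1 was the 1 gene of that list to pass a test. On the 50000 strongest peaks 34 of the 42 genes were tested, 11 above and 23 below 0 with a median of -0.05, and 11 had an unadjusted p under 0.05, against 14.8% of all loci tested there. The share called over all loci was 1.27%. Mrc1 fell from 3495, 4120 and 4011 bp in young to 1413, 1742 and 2341 bp in old, a log2 change of -1.03 (SE 0.16, adjusted p = 0.0320). On the 100000 strongest peaks the change was -0.43 (adjusted p = 0.0282). The call was lost on the 30000 strongest peaks (-0.74, adjusted p = 0.22), with no scaling (-1.14, adjusted p = 0.0796) and when any of 5 of the 6 libraries was left out. Over all 6 left-out fits the Mrc1 change ran from -1.20 to -0.87. Slc7a2 had 693, 0 and 0 bp in young and 1169, 1629 and 1469 bp in old. It entered that fit only through the old libraries and was not called with all 6 libraries (adjusted p = 0.10). In 1 of the limma fits with a library left out Slc7a2 did pass (adjusted p = 0.0111). That pass is not taken as a result, because the locus reached the filter only through the old libraries. Since 2 young libraries are at 0 bp no fold is given. In the same lists the summed length at the 8 macrophage marker loci was 18292 to 19415 bp in young and 15148 to 15655 bp in old, and that at the 5 stromal marker loci 6960 to 7566 bp in young and 8671 to 9596 bp in old. The summed length of the 10 members was 11503 to 12624 bp in young and 11866 to 12399 bp in old. That of the 42 further genes, Mrc1 among them, lay fully apart, at 84462 to 87141 bp in young and 78734 to 80572 bp in old. On the deposited lists the sums of these 42 overlapped, at 149371 to 154686 bp in young and 146146 to 149625 bp in old. Single loci lay fully apart by age at 20.3% of all loci in these lists, and the sums of the other listed cell types overlapped. On the deposited lists the stromal sums overlapped, at 21694 to 24475 bp in young and 21390 to 22939 bp in old. The macrophage sums there lay fully apart, at 32613 to 33007 bp in young and 30402 to 32529 bp in old. So did the endothelial sums, at 8692 to 8999 bp in young and 7743 to 8308 bp in old. The eosinophil and mast cell sums lay apart the other way, at 1040 to 1205 bp in young and 1298 to 1680 bp in old. The sums of the remaining cell types overlapped there. In the limma fit on the 50000 strongest peaks, 7 macrophage marker loci were tested, 6 of them below 0. Of these 1 was called narrower in old (adjusted p = 0.0350), against 0.438% of all loci. Of the 5 stromal marker loci 4 were above 0 and 1 was called wider (adjusted p = 0.0284), against 0.835%. On the deposited lists 0 of either kind were called. The sums were not tested, and the 20.3% holds for single loci and not for sums. Their part in the Mrc1 and Slc7a2 values was not tested.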

How the data were processed

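ATAC-seq peak lists of 3 young and 3 old libraries were used, grouped by the labels. The submitters' processing notes list MACS2 2.1.0.20140616, Bowtie2 2.2.6, Trim Galore 0.4.4, Picard, cutadapt 1.14, SAMtools and the build mm10, without roles. The authors deposited a broad peak list for every library and pooled no replicates in them. For each peak these lists give the authors' fold enrichment, a ratio over local background, and its −log10 q, whose lowest value lay just over 1. Both were used only to rank and filter peaks within a list or to describe single peaks. Neither was tested between the ages. The handling of duplicate reads, of the transposase offset and of depth is not given in the sources used here; a deeper library can have more and wider peaks.

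Gene spans came from RefSeq (GRCm38.p6, whose primary chromosomes are those of mm10), and starts from its promoter table. Base pairs under peaks per locus were scaled to the library's sum over all loci. With limma 3.58.1 (trend, robust; R 4.3.3), all loci averaging at least 500 bp were tested on log2(bp + 200), with Benjamini-Hochberg adjustment over all loci and a threshold of 0.05. Start windows were fitted likewise, and region lengths on log2(bp + 50). Fold changes on this scale understate those of sparse loci, and the code was tested on simulated data. Overlaps of 1 bp or more were computed with Python 3.11.15, numpy 2.4.6 and pandas 2.3.3, permutation tests with scipy 1.17.1 and figures with matplotlib 3.10.9.

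The members and gene lists were chosen with earlier results of these data known. Named were all members, genes sharing their loci, listed genes past the threshold on either kind of list and the 2 per direction with the smallest p on the deposited lists, and per locus the start region, the region ranked highest in its weakest library and regions of 1 age. Other regions, and the related Chil4, Chia1 and Retnlg, were named after their values were seen. Alternatives were −log10 q limits, flank widths, pseudocounts, filter, scaling, list lengths, start windows, leaving out each library and a replicate block; those on region lengths and, for starts, no filter, block and left-out libraries were added after the data were seen.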

Additional observations from a re-analysis of the deposited data

How the results depend on the processing

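No member was called under any setting on the deposited lists, the 50000 strongest peaks or the start windows, except Pdcd1lg2 without old library 1 (0 to 1 members called over the left-out libraries). The count of called loci was less stable. On the deposited lists it was 164, and 9 at a −log10 q of at least 5, 4 with no filter, 15 with no scaling and 29 to 340 over the left-out libraries (29 without young library 1, 65 without young library 3, 340 without old library 1, 75 without old library 2 and 57 without old library 3). On the strongest peaks it was 183, and 5 with no scaling and 3 to 108 over the left-out libraries (3 without old library 1). For start windows it was 0, and 2 at 500 bp on each side, 6 with no filter and 0 to 9 over the left-out libraries. Regions of 1 age fell from 2 to 1 at a −log10 q of at least 2, where the Klf4 region was left. The causes were not tested.

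With no scaling the median of all loci was -0.14 on the deposited lists and -0.11 on the strongest peaks, and these log2 changes turned: Arg1 -0.081, Il4ra -0.12, Stat6 -0.046, Ccl17 -0.12, Slc7a2 -0.0100 and Socs3 -0.0040 on the former, Il4ra -0.073 and Stat6 -0.0052 on the latter. At a −log10 q of at least 5 Klf4 was 0.048, Ccl17 -0.072, Ccl24 0.083 and Slc7a2 -0.18, at 2 or more Ccl22 was -0.15, and with 5 kb on each side Ccl17 was -0.15. Among the 30000 strongest peaks Klf4 was -0.015, and among the 100000 strongest Klf4 was -0.089 and Slc7a2 -0.0081. Over the left-out libraries the ranges that crossed 0 were -0.091 to 0.16 for Arg1, -0.067 to 0.11 for Ccl17, -0.021 to 0.25 for Ccl22 and -0.0037 to 0.081 for Il4ra on the deposited lists, -0.26 to 0.27 for Ccl17, -0.13 to 0.068 for Ccl24 and -0.040 to 0.12 for Il4ra on the strongest peaks, and -0.023 to 0.092 for Il4ra and -0.094 to 0.064 for Klf4 at the start. Pdcd1lg2 stayed below 0 under all settings run, from -0.87 to -0.21 on the deposited lists.

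Same-numbered libraries of the 2 ages had deviations correlated at over 0.1 in 2 of 3 pairs, and 2 of 6 libraries correlated best with their own number, so the numbers were not taken as pairs. With a replicate block 265 loci were called on the deposited lists and 0 on the strongest peaks (2173 at an unadjusted p under 0.05), no member was called, and Mrc1 on the strongest peaks had an adjusted p of 0.0537. Since depth is unknown, weak peaks such as those of Retnla, Chil3 and Arg1 may be present below the calling threshold in libraries that list none.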

Other observations

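Some peaks at these loci differed in rank between the ages although their lengths did not pass a test. They were picked after the values were seen, and ranks or fold enrichments from different lists show no change by themselves. The share of all regions whose ranks lie apart by age was not computed. For covered length, young and old lay fully apart at 17.0% of all loci on the deposited lists. The ranks below are thus not shown to be particular to these genes. The Ccl24 peak over the upper gene end (chr5:135573023-135573380) stood in the top 6.38% to 6.83% of the young lists and 12.9% to 18.4% of the old, with authors' fold enrichments of 6.27, 5.84 and 6.34 in young and 5.38, 4.65 and 4.49 in old. Inside Il4ra the region chr7:125555426-125555813, 3155 bp after the start, stood at 10.3%, 9.73% and 13.8% in young and 21.2%, 23.4% and 23.5% in old, while the Il4ra start region stood between 8.54% and 12.5% at both ages. At a single Arg1 region, chr10:24931579-24931776, the order was the opposite. It lay 4109 bp beyond the upper gene end and stood at 79.3%, 74.0% and 63.6% in young and 40.1%, 40.7% and 43.1% in old. The higher-ranked Arg1 regions did not follow it, and their ages overlapped. The region chr10:24930093-24930613 ranked from 20.9% to 26.2% in young and 23.7% to 30.5% in old. The region chr10:24911205-24911626 ranked from 21.7% to 35.2% in young and 26.8% to 48.5% in old.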
